A study of Mus musculus with 6 samples.

Results

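The genes described here are 10 genes of blood-cell signalling and the blood-cell cytoskeleton, Hcls1, Gpsm3, Ptprc, Laptm5, Coro1a, Arhgdib, Lcp1, Vav1, Inpp5d and Plcg2, measured by RNA sequencing in the primary visual cortex (V1) of the mouse. They were picked by name from the 54429 genes of the deposited table, and all 10 were found in it. Hcls1 and Gpsm3 were picked because they were among the leading rises of the series, with ranks 2 and 1 by limma p among 16254 genes for shCSB/shNDN against shCSB and ranks 6 and 9 for shCSB/shNDN against shControl. The other 8 were added for their known roles, with earlier results of these data in view. Values of these genes in the libraries labelled shCSB/shNDN are therefore given as a description, with no test. All 10 passed the filter on low values, which asked for 2 or more libraries with an FPKM of 0.5 or above, FPKM being a read count scaled for the length of the gene and the size of the library. Ptprc passed only through the libraries labelled shCSB/shNDN, so it had to be higher there.

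The samples were V1 cortex of female C57BL mice aged 9 weeks, all of which had been injected there with AAV, an adeno-associated virus used to bring genes into the cells of the brain. In shCSB/shNDN the virus carried hairpins against CSB and necdin, in shCSB a hairpin against CSB, and in shControl a control hairpin. CSB is a protein of transcription-coupled DNA repair encoded by Ercc6, and necdin is a growth-restraining protein of neurons encoded by Ndn. Each group had 2 libraries, taken as 2 mice per genotype as the series text gives them. The promoter that drives the hairpins and the cells that took up the virus are not given in the sources used here, and no group without virus was analysed here.

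Leukocytes carry receptors that signal through tyrosine kinases to exchange factors, lipases and phosphatases, and these in turn reshape the actin skeleton for migration and engulfment. Many of the proteins in this chain are made mainly in cells of blood origin. In the cortex the resident cells of that origin are microglia, the phagocytes of the brain, beside fewer macrophages along the vessels. Hcls1 codes for a cortactin relative that binds branched actin and is phosphorylated by Lyn and Syk. Lcp1 codes for L-plastin, which bundles actin, and Coro1a for coronin 1A, an actin-binding protein of leukocytes that neurons make as well. Vav1 codes for an exchange factor that activates Rac GTPases, Arhgdib for an inhibitor that holds small GTPases in their inactive form, and Gpsm3 for a protein that binds the inactive alpha subunit of Gi proteins. Ptprc codes for CD45, the tyrosine phosphatase that switches Src family kinases. Plcg2 codes for a phospholipase C that produces calcium signals, and Inpp5d for SHIP1, a phosphatase that removes the lipid product of PI3 kinase. Laptm5 codes for a lysosomal membrane protein that lowers the amount of antigen receptors at the surface.

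The promoter sequences of 6 of the genes are shown first, because genes of the myeloid lineage often carry purine-rich sites of the ETS family, which includes the factor encoded by Spi1. All 10 genes matched the RefSeq promoter table for GRCm38.p6, which holds 300 bases around each transcript start, 250 before it and 50 after it, in 32851 windows of 27025 genes. The 10 genes had 15 windows. The last 150 bases before a start are printed 5′ to 3′ on the strand of the gene, in lower case. Capitals mark GAGGAA or GGAAGT, or the reverse complement of either where the motif lies on the opposite strand. Hcls1 and Gpsm3, the leading genes, come from chr16:36934833-36934982 (plus strand) and chr17:34589656-34589805 (plus strand). Vav1 and Inpp5d, in which both motifs run together as GAGGAAGT close to the start, come from chr17:57278950-57279099 (plus strand) and chr1:87620162-87620311 (plus strand). The first of the 2 Ptprc starts, from chr1:138175306-138175455 (minus strand), holds a GGAAGT on each strand. The first of the 2 Coro1a starts, from chr7:126704817-126704966 (minus strand), holds no match to either motif and stands for contrast.
Hcls1: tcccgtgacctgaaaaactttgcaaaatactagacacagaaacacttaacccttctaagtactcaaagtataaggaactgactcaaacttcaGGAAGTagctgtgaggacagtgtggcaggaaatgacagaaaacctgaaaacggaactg
Gpsm3: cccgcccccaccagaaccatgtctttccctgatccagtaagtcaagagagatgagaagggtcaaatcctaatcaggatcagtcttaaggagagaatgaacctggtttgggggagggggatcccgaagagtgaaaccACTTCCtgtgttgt
Vav1: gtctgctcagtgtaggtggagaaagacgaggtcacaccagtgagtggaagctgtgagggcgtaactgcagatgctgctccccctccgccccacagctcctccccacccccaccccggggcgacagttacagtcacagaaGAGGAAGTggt
Inpp5d: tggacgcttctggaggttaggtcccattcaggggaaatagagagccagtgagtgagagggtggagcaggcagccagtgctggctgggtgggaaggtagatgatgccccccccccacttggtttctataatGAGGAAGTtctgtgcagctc
Ptprc: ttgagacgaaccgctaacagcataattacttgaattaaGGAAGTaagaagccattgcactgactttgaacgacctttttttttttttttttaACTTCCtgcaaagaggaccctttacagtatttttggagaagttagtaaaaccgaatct
Coro1a: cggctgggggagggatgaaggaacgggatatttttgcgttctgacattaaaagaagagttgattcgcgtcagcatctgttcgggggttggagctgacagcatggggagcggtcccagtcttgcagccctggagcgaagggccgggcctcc

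In the full windows, searched on both strands, GGAAGT was found in 8 of the 10 genes and in 26.5% of all genes of the promoter table, and GAGGAA in 6 of the 10 and in 31.3% of all genes. A gene counted if any of its windows matched, so genes with more windows had more room to match. By window, GGAAGT was found in 9 of the 15 and in 23.8% of all windows. For GAGGAA it was 6 of the 15 and 28.3%. The 2 motifs share 4 bases when they overlap, so the counts are not independent. The core GGAA was found in all 10 genes and in 96.5% of all genes. The RUNX-type letters TGTGGT were found in 1 of the 10 and in 18.9% of all genes, and TATAAA in 4 of the 10 and in 15.7%. Counted from the first transcribed base as 0, the joined GAGGAAGT began at base -11 in Vav1 and at base -20 in Inpp5d. In Hcls1, GGAAGT began at base -58, and in Gpsm3 it lay on the opposite strand at base -14, with a GAGGAA at base -192 outside the printed stretch. In Ptprc, GGAAGT began at bases -112 and -58 of the first start. Coro1a and Plcg2 had no match to GAGGAA or GGAAGT in these windows. These are matches of letters and no measurement of binding was made.

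**Figure D1:**
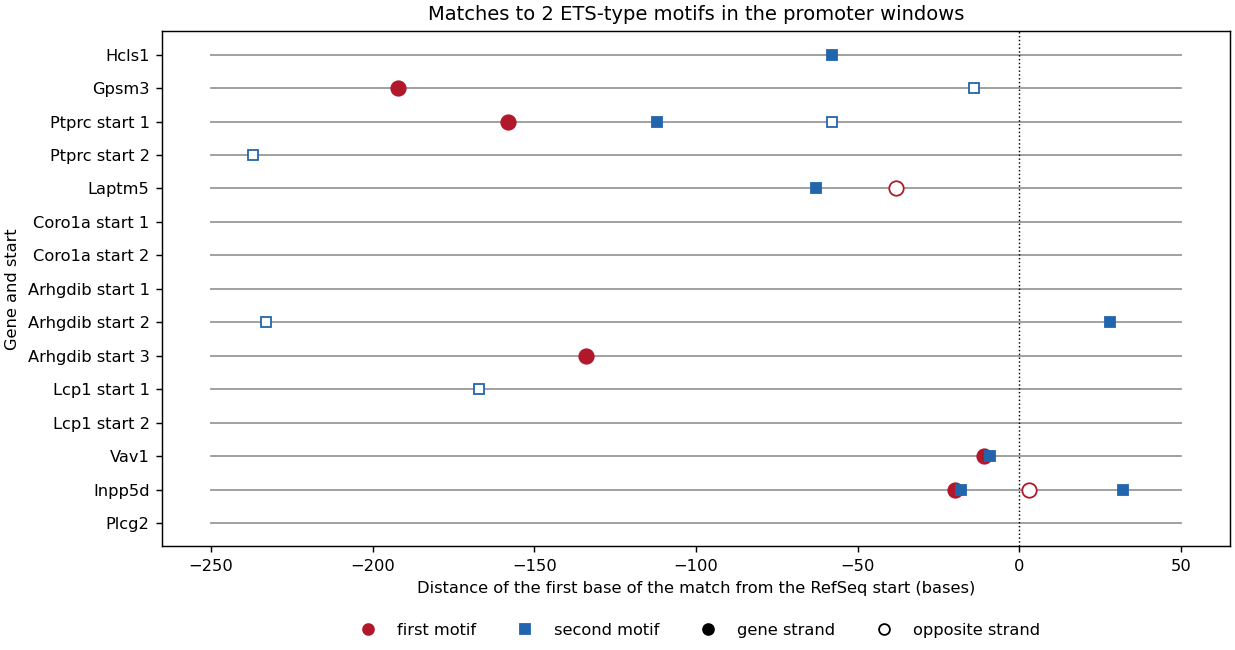
Positions of 2 short motifs in the RefSeq promoter windows of the 10 genes, 1 row per transcript start; the x axis is the distance in bases from the transcript start. Circles stand for GAGGAA (the first motif) and squares for GGAAGT (the second), filled on the strand of the gene and open on the opposite strand. Vav1 and Inpp5d carry both together just before the start, at bases -11 and -20, and the rows of Coro1a and Plcg2 are empty.

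The FPKM values corresponded to 16545933 and 16384738 reads in the libraries labelled shCSB/shNDN, 16192850 and 17365285 in those labelled shCSB, and 16781184 and 15731788 in shControl. Ercc6, the target of the CSB hairpin, was not lower in the libraries that carry its name, with FPKM values of 1.61 and 1.81 in shCSB/shNDN, 1.29 and 1.61 in shCSB and 1.46 and 1.22 in shControl, so the group names are used below as labels only. Ndn was at 16.8 and 41.0 FPKM in shCSB/shNDN, 47.9 and 38.1 in shCSB and 56.1 and 49.8 in shControl. The libraries labelled shCSB/shNDN stood apart from each other. Across genes, which do not count as independent replicates, Pearson's r of log2(FPKM + 1) came to 0.939 between them, against 0.980 between the shCSB libraries and 0.986 between the shControl libraries. In replicate 2 of shCSB/shNDN, 1.41% of the reads came from mitochondrially encoded genes, where the other 5 libraries had 4.95% to 7.65%. Genes with a single read numbered 435 there and 1597 to 1839 in the others. For this reason the changes of the 10 genes, the list medians and the named list genes are also given with 1 library of that pair at a time. The part of these library differences in the results was not tested.

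The genes differed widely in level in the control cortex. Coro1a averaged 76.1 FPKM, Laptm5 14.3, Arhgdib 3.78 and Gpsm3 2.04, each with shControl values that did not overlap those of the next gene down. Hcls1 followed at 1.66, Inpp5d at 1.38 and Vav1 at 1.25, where the Inpp5d values of 1.09 and 1.67 spanned those of its neighbours in part. Plcg2 at 0.755 and Lcp1 at 0.727 overlapped, and Ptprc was lowest at 0.122. The 60 values of the 10 genes rested on 29 to 8240 reads each, the fewest for Ptprc in shControl replicate 2 and the most for Laptm5 in shCSB/shNDN replicate 1. A count of 0 allows up to 3 reads, which is 0.169 to 0.201 FPKM for a gene of 1 kilobase, for counting error only. Ptprc lay below that figure in shCSB and shControl, but its annotated exons sum to 18313 bases in the table, so that 29 to 54 reads stood behind each of those values.

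Among the actin-binding proteins, Hcls1 and Lcp1 lay higher in both libraries labelled shCSB/shNDN than in every other library, and Coro1a did not. Hcls1 (ENSMUSG00000022831, GRCm38 chromosome 16, 36934983 to 36963212, plus strand) had FPKM values of 14.6 and 9.30 in shCSB/shNDN, 1.64 and 2.45 in shCSB and 1.68 and 1.64 in shControl. Both shCSB/shNDN libraries thus stood well clear of a narrow band formed by the other 4. Lcp1 (ENSMUSG00000021998, chromosome 14, 75131101 to 75230842, plus strand) was at 8.21 and 1.96 FPKM in shCSB/shNDN, 0.957 and 1.18 in shCSB and 0.601 and 0.853 in shControl. Its shCSB/shNDN libraries did not overlap the others either, but replicate 2 of shCSB/shNDN lay much nearer to the other groups than replicate 1. Coro1a (ENSMUSG00000030707, chromosome 7, 126699773 to 126707787, minus strand) was at 76.7 and 109 FPKM in shCSB/shNDN, 86.9 and 64.0 in shCSB and 79.7 and 72.6 in shControl. Replicate 1 of shCSB/shNDN fell inside the range of the other groups, and replicate 2 lay above it. Coro1a shares 26 exonic bases with Bola2 on the opposite strand, and since the strand setting of the counting is not stated, reads there could belong to either gene. Bola2 was at 8.95 and 17.4 FPKM in shCSB/shNDN, 8.94 and 7.79 in shCSB and 10.2 and 10.5 in shControl.

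The regulators of G proteins and small GTPases differed among themselves. Gpsm3 (ENSMUSG00000034786, chromosome 17, 34589806 to 34591754, plus strand) had FPKM values of 12.4 and 8.53 in shCSB/shNDN, 2.09 and 2.09 in shCSB and 2.29 and 1.80 in shControl. As with Hcls1, both shCSB/shNDN libraries stood clear of the other 4. Of the 1343 exonic bases of Gpsm3, 227 are shared with Pbx2 on the same strand, so part of its reads is uncertain. Pbx2 itself was at 15.9 and 13.2 FPKM in shCSB/shNDN, 17.3 and 13.6 in shCSB and 18.4 and 18.5 in shControl, and thus did not lie higher in shCSB/shNDN. Vav1 (ENSMUSG00000034116, chromosome 17, 57279100 to 57328031, plus strand) was at 9.06 and 2.80 FPKM in shCSB/shNDN, 1.18 and 1.34 in shCSB and 1.05 and 1.45 in shControl. Both shCSB/shNDN values of Vav1 were above all others, with a wide gap within the pair. Arhgdib (ENSMUSG00000030220, chromosome 6, 136923655 to 136941899, minus strand) was at 19.3 and 1.71 FPKM in shCSB/shNDN, 4.43 and 4.54 in shCSB and 3.63 and 3.92 in shControl. The 2 shCSB/shNDN libraries lay on opposite sides of the other 4, which were close together. The value of replicate 2 rested on 50 reads and that of replicate 1 on 563.

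Of the phosphatases and the lipase, Ptprc and Inpp5d had shCSB/shNDN libraries above all others, and Plcg2 lay nearer the other libraries. Ptprc (ENSMUSG00000026395, chromosome 1, 138062861 to 138175708, minus strand) was at 1.53 and 0.635 FPKM in shCSB/shNDN, 0.130 and 0.166 in shCSB and 0.137 and 0.106 in shControl. Inpp5d (ENSMUSG00000026288, chromosome 1, 87620312 to 87720507, plus strand) was at 7.62 and 2.52 FPKM in shCSB/shNDN, 1.41 and 2.20 in shCSB and 1.09 and 1.67 in shControl. For Inpp5d the lower shCSB/shNDN library was only a little above the higher shCSB library. Plcg2 (ENSMUSG00000034330, chromosome 8, 117498291 to 117635142, plus strand) was at 5.69 and 1.01 FPKM in shCSB/shNDN, 1.38 and 0.902 in shCSB and 0.543 and 0.966 in shControl. Its replicate 2 of shCSB/shNDN sat between the shCSB libraries and just above the higher control. Laptm5 (ENSMUSG00000028581, chromosome 4, 130913125 to 130936141, plus strand), the lysosomal gene, was at 127 and 38.1 FPKM in shCSB/shNDN, 13.5 and 17.0 in shCSB and 15.5 and 13.1 in shControl. Both its shCSB/shNDN libraries were above the others, and it had the largest gain in FPKM of the 10 genes.

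**Figure D2:**
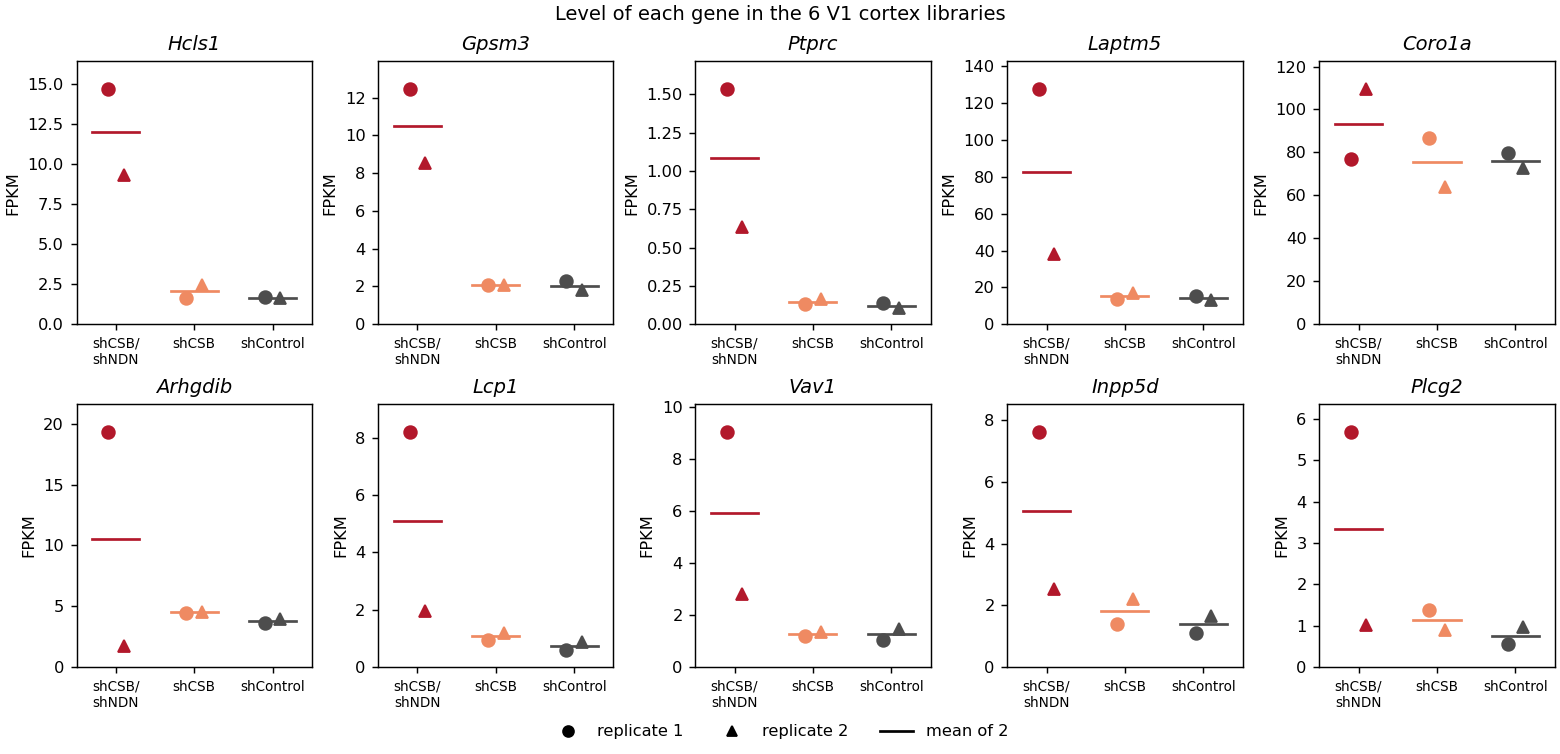
FPKM of each of the 10 genes in each of the 6 libraries on a linear axis from 0 whose scale differs between panels, with shCSB/shNDN, shCSB and shControl from left to right; points are libraries and lines are means of 2. Hcls1 at 14.6 and 9.30 and Gpsm3 at 12.4 and 8.53 in shCSB/shNDN lie close together and clear of the other libraries, while the Arhgdib points at 19.3 and 1.71 lie on either side of them.

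Both shCSB/shNDN libraries were above both shControl libraries for 8 of the 10 genes, all but Coro1a and Arhgdib, where 20.7% of all 16254 genes were so, and below both for 0 of the 10, where 23.7% of all genes were so. They were above both shCSB libraries for 7 of the 10, all but Coro1a, Arhgdib and Plcg2, where 16.5% of all genes were so. The choice of genes used these comparisons, so nothing is read from the counts. Mean levels in shCSB/shNDN were 8.90 times those in shControl for Ptprc, 7.21 for Hcls1, 6.99 for Lcp1, 5.79 for Laptm5 and 5.14 for Gpsm3. They were 4.74 times for Vav1, 4.43 for Plcg2, 3.68 for Inpp5d, 2.78 for Arhgdib and 1.22 for Coro1a. The comparisons with shCSB and with shControl share the shCSB/shNDN libraries, and side by side the means were 5.85 times those in shCSB for Hcls1 and 7.21 times those in shControl, with 5.01 and 5.14 for Gpsm3 and 2.94 and 4.43 for Plcg2. In bulk tissue, more cells of a type and more RNA per cell cannot be told apart.

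On the scale of log2(FPKM + 1), which understates changes of low genes, limma gave for shCSB/shNDN against shControl a change of 2.25 ± 0.25 (SE) for Hcls1, 2.22 ± 0.51 for Laptm5 and 1.90 ± 0.21 for Gpsm3. Lcp1 followed at 1.60 ± 0.49, Vav1 at 1.46 ± 0.43 and Inpp5d at 1.22 ± 0.42. The changes were 1.07 ± 0.53 for Plcg2, 0.86 ± 0.26 for Ptprc, 0.64 ± 0.82 for Arhgdib and 0.27 ± 0.25 for Coro1a. Laptm5 thus had nearly the change of Hcls1 with an error about as large as those of Lcp1 and Plcg2. The median of the 10 was 1.34, beside -0.0075 over all genes tested. Against shCSB the changes were 2.13 for Laptm5, 2.07 for Hcls1, 1.87 for Gpsm3, 1.45 for Vav1, 1.34 for Lcp1 and 0.99 for Inpp5d, with the same errors. Ptprc was at 0.83, Plcg2 at 0.78, Arhgdib at 0.44 and Coro1a at 0.29, and the median was 1.16, beside -0.0083 over all genes. Over all 16254 genes, limma called 0 for shCSB/shNDN against shCSB, with 1371 (8.43%) at an unadjusted p under 0.05 and 0 by limma-voom. For shCSB/shNDN against shControl it called 1, which is 0.00615% and a microRNA locus outside the 10, with 2180 (13.4%) at an unadjusted p under 0.05 and 6 by limma-voom, none of them among the 10.

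**Figure D3:**
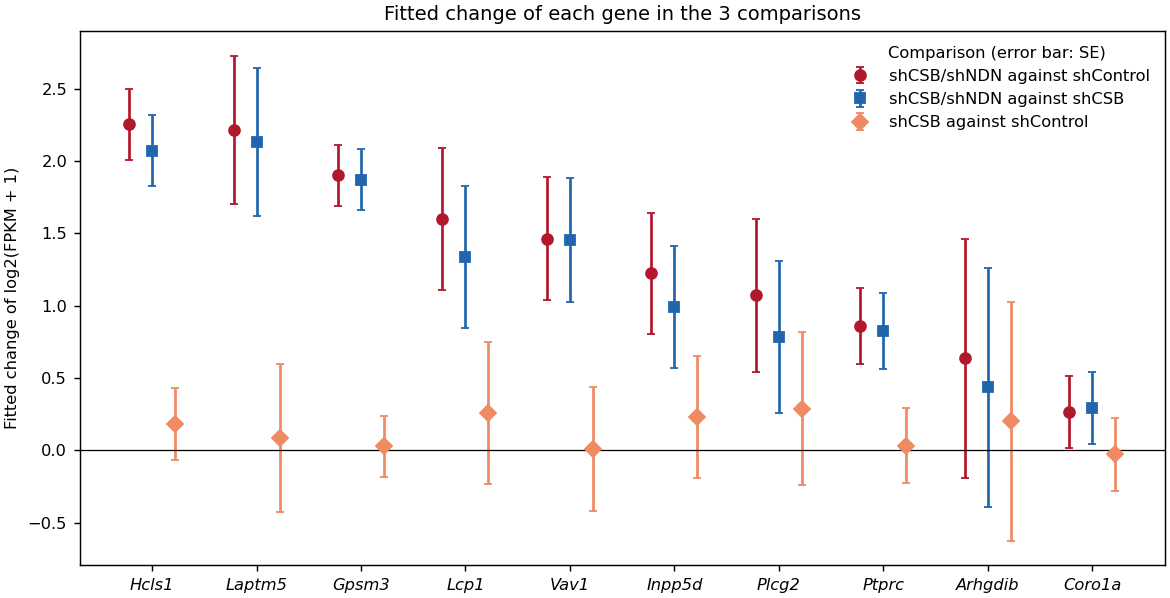
Fitted log2(FPKM + 1) change of each gene, with shCSB/shNDN against shCSB and against shControl, and shCSB against shControl; bars are standard errors from limma. For shCSB against shControl every gene lies between -0.028 and 0.29, while for shCSB/shNDN against shControl the genes run from 0.27 for Coro1a to 2.25 for Hcls1.

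How far a gene stood above the controls depended on the library for most of the 10. The log2 difference of shCSB/shNDN replicate 1 minus replicate 2 was 0.60 for Hcls1, 0.50 for Gpsm3 and 0.63 for Ptprc. It was between 1.29 and 1.74 for Inpp5d, Vav1, Lcp1, Laptm5 and Plcg2, 2.91 for Arhgdib and -0.51 for Coro1a. Thus replicate 1 lay above replicate 2 by more than 1 for 6 of the 10 and for 6.54% of all genes, whose median difference was 0.041 and whose 5th to 95th percentiles ran from -0.81 to 1.13. With the first library alone, the change against shControl was 2.56 for Hcls1, 2.15 for Gpsm3 and 3.07 for Laptm5. With the second alone it was 1.95 for Hcls1, 1.65 for Gpsm3 and 1.36 for Laptm5. Lcp1 was at 2.42 with replicate 1 alone and 0.78 with replicate 2 alone, and Vav1 at 2.17 and 0.76. For Hcls1 and Gpsm3 either library alone thus gave a change near that of the pair, and for Lcp1 and Vav1 the size rested largely on replicate 1. Inpp5d was at 1.87 with replicate 1 alone and 0.58 with replicate 2 alone, Plcg2 at 1.94 and 0.20, and Ptprc at 1.18 and 0.54. Arhgdib turned sign, with 2.09 for replicate 1 alone and -0.82 for replicate 2 alone. Coro1a had 0.013 with replicate 1 alone and 0.52 with replicate 2 alone. Against shCSB, the same pairs of values were 2.37 and 1.77 for Hcls1, 2.12 and 1.62 for Gpsm3 and 2.99 and 1.27 for Laptm5. They were 2.16 and 0.52 for Lcp1, 2.16 and 0.75 for Vav1, 1.64 and 0.34 for Inpp5d and 1.14 and 0.51 for Ptprc. For Plcg2 (1.65 and -0.084) and Arhgdib (1.89 and -1.02) the second library alone gave a negative value, and for Coro1a the values were 0.041 and 0.55.

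The comparison of shCSB with shControl, a question about the label shCSB since Ercc6 was not lower there, is not named in the rule that chose the genes and was tested, although its results for all genes were known when they were chosen. None of the 10 passed (0 by limma and 0 at an unadjusted p under 0.05), with a limma adjusted p of 1 for each. Hcls1 had a log2 change of 0.18 with a 95% interval from -0.41 to 0.78, and Gpsm3 one of 0.028 with an interval from -0.48 to 0.54. Ptprc had 0.033 (interval -0.60 to 0.66), Laptm5 0.085 (-1.15 to 1.32) and Coro1a -0.028 (-0.63 to 0.58). The upper bounds lie below the changes given above for shCSB/shNDN against shControl for Hcls1, Gpsm3, Ptprc and Laptm5. The choice of genes used the shCSB/shNDN comparisons, and those changes carry errors of their own and share the shControl libraries. Setting the bounds beside them, here and below, is therefore a description and no test. Arhgdib had 0.20 (-1.78 to 2.19), Lcp1 0.26 (-0.92 to 1.44) and Vav1 0.0093 (-1.02 to 1.04). Inpp5d had 0.23 (-0.78 to 1.24) and Plcg2 0.29 (-0.98 to 1.56). Of these 5, the upper bound lies below the shCSB/shNDN change for Vav1 and Lcp1 and above it for Arhgdib, Inpp5d and Plcg2. Both shCSB libraries were above both controls for Arhgdib and Lcp1, 2 of the 10, where 18.3% of all genes were so. The median of the 10 was 0.13, beside -0.0035 over all genes, and limma called 0 of 16254 genes, with 316 (1.94%) at an unadjusted p under 0.05 and 0 by limma-voom. The signs for Gpsm3, Ptprc, Coro1a and Vav1 turned under quantile normalization, and those for Hcls1, Gpsm3, Laptm5, Coro1a and Vav1 without 1 of the libraries.

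The level of each gene relative to microglia in the same library was described by dividing by the summed FPKM of 15 microglia markers. That sum was 2811 and 755.0 in shCSB/shNDN, 330.1 and 382 in shCSB and 272 and 258 in shControl, with none of the 15 at 0. C1qa and C1qb were the largest parts of each sum, and the markers did not move alike. Mean levels in shCSB/shNDN were 9.49 times those in shControl for C1qa and 7.73 for C1qb. Over the 15 they ran from 1.17 times for P2ry12 to 10.6 for Trem2, with 2.33 for Tmem119 and 3.19 for Cx3cr1. This scale therefore follows C1qa and C1qb most and is no measure of microglia in general. Per 100 FPKM of markers, Lcp1 was at 0.292 and 0.259 FPKM in shCSB/shNDN, 0.290 and 0.308 in shCSB and 0.221 and 0.330 in shControl. Laptm5 was at 4.53 and 5.05 in shCSB/shNDN, 4.09 and 4.46 in shCSB and 5.70 and 5.08 in shControl. Relative to these markers, Lcp1 and Laptm5 in the shCSB/shNDN libraries lay within the range of the other 4. Hcls1 was at 0.521 and 1.23 in shCSB/shNDN, 0.498 and 0.641 in shCSB and 0.618 and 0.637 in shControl. Gpsm3 was at 0.442 and 1.13 in shCSB/shNDN, 0.633 and 0.548 in shCSB and 0.842 and 0.696 in shControl. In replicate 2 of shCSB/shNDN both Hcls1 and Gpsm3 were thus higher relative to the markers than in any other library, and in replicate 1 they were not. Ptprc was at 0.0545 and 0.0841 in shCSB/shNDN, 0.0394 and 0.0434 in shCSB and 0.0506 and 0.0411 in shControl, above all others in both shCSB/shNDN libraries. Vav1 was at 0.322 and 0.371 in shCSB/shNDN, 0.356 and 0.351 in shCSB and 0.386 and 0.563 in shControl, with replicate 1 of shCSB/shNDN the lowest of the 6. Inpp5d was at 0.271 and 0.334 in shCSB/shNDN, 0.426 and 0.575 in shCSB and 0.402 and 0.645 in shControl, below all others in both shCSB/shNDN libraries. Plcg2 was at 0.202 and 0.133 in shCSB/shNDN, against 0.200 to 0.417 in the other 4, so that replicate 2 lay below them. The level of Arhgdib per 100 FPKM of markers was 0.688 and 0.227 in shCSB/shNDN, against 1.19 to 1.52 elsewhere, and that of Coro1a was 2.73 and 14.5, against 16.8 to 29.3. Both lay below every other library on this scale. The part of the microglial signal in the levels of the 10 genes was not tested.

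**Figure D4:**
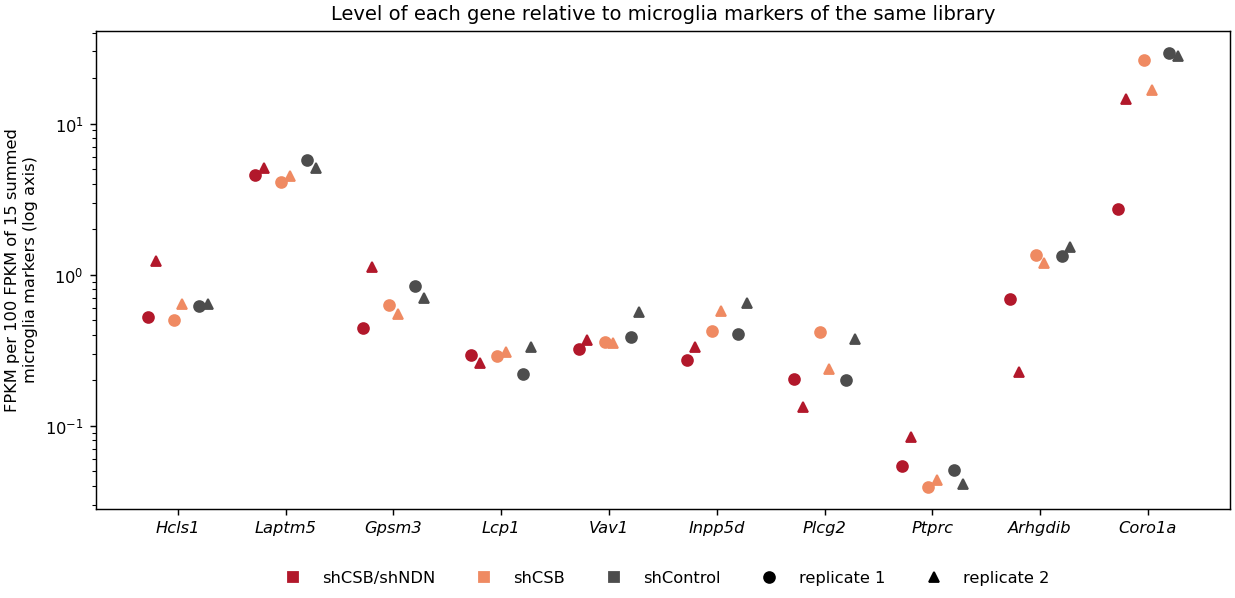
FPKM of each gene per 100 FPKM of 15 summed microglia markers of the same library on a log axis, with shCSB/shNDN, shCSB and shControl from left to right; points are libraries. Laptm5, at 4.53 and 5.05 in shCSB/shNDN, lies within the range of the other libraries, while Arhgdib at 0.688 and 0.227 and Coro1a at 2.73 and 14.5 lie below all of them.

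Other cell types were followed by their markers in the same libraries. Perivascular macrophage markers, 6 genes, summed to 4.71 and 7.35 FPKM in shCSB/shNDN, 2.93 and 1.98 in shCSB and 1.85 and 1.92 in shControl, and T and NK cell markers, 12 genes, to 8.04 and 3.60 in shCSB/shNDN, 2.11 and 1.96 in shCSB and 1.80 and 2.04 in shControl. Both sums were highest in the shCSB/shNDN libraries, but they were low, and 2 of the 6 and 3 of the 12 genes passed the filter. The genes within each list differed. Lyve1, a perivascular macrophage marker, was at 0.0401 and 0.360 FPKM in shCSB/shNDN, the lowest and the highest of its 6 values. The T cell markers Cd2, Cd3d and Cd4 were listed at 0 in replicate 2 of shCSB/shNDN. Monocyte markers, 6 genes, summed to 2.37 and 0.448 FPKM in shCSB/shNDN and 0.637 to 1.96 elsewhere, and neutrophil markers, 8 genes, to 1.60 and 1.01 in shCSB/shNDN and 1.02 to 3.88 elsewhere, with Ly6g and Retnlg listed at 0 in every library. B and plasma cell markers, 8 genes, summed to 123 and 35.2 FPKM in shCSB/shNDN, 202 and 79.9 in shCSB and 30.8 and 41.4 in shControl, mostly Igkc and Ighm, while Ms4a1 was at most 0.030. Neuron markers, 8 genes, summed to 2919 and 3676 FPKM in shCSB/shNDN, 3525 and 3296 in shCSB and 3574 and 4087 in shControl, with Nrgn the largest part of each sum, so that neuron markers were present in every library of this cortex. In shCSB/shNDN 4 of the 8 lay below both controls in both libraries, where 23.7% of all 16254 genes were so. Among them was Slc17a7, at 313 and 206 FPKM in shCSB/shNDN, 357 and 294 in shCSB and 406 and 420 in shControl. The other 4 overlapped the controls, and Gad1 and Nrgn lay below both controls in replicate 1 and above both in replicate 2. The median change of the 8 against shControl was -0.37, with 2 lower at an unadjusted limma p under 0.05 and 0 past the threshold. Of all 16254 genes, 1090 were lower at such a p. Erythroid markers, 5 genes, summed to 186 and 272 FPKM in shCSB/shNDN, 145 and 242 in shCSB and 183 and 282 in shControl, mostly haemoglobin genes, and overlapped between groups. Astrocyte markers, 6 genes, summed to 574 and 338 FPKM in shCSB/shNDN, 245 and 303 in shCSB and 234 and 225 in shControl. Among them Gfap, which astrocytes raise when reactive, was at 372 and 152 FPKM in shCSB/shNDN, 76.3 and 56.3 in shCSB and 52.2 and 48.4 in shControl (limma adjusted p = 0.185 against shControl). The astrocyte list as a whole did not follow Gfap. Of its 6 genes, 4 overlapped the controls, and the median change against shControl was 0.085. Aldh1l1 was at 0.085 and Gja1 at 0.078, and the lowest change of the list was -0.059. The part of these cell types in the levels of the 10 genes was not tested.

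The close relatives of the 10 genes that many tissues express were examined as 19 genes, all of which passed the filter through shCSB and shControl libraries as well. None passed the test in any comparison (0 of 19 by limma and by limma-voom), and the median change for shCSB/shNDN against shControl was -0.081, beside -0.0075 over all genes. The sign of that median depended on the library and the scale, at 0.062 with replicate 1 of shCSB/shNDN alone, -0.24 with replicate 2 alone and 0.030 by limma-voom. Both shCSB/shNDN libraries were above both controls for 3 of the 19, Gpsm2, Vav2 and Vav3, where 20.7% of all genes were so, and below both for Coro1b, where 23.7% were so. Vav2, the broadly expressed relative of Vav1, was at 3.58 and 3.08 FPKM in shCSB/shNDN, 1.70 and 2.06 in shCSB and 1.88 and 1.67 in shControl (limma adjusted p = 0.268 against shControl). It was the only relative of the 19 with an unadjusted p under 0.05 in that comparison. Cttn, the cortactin gene related to Hcls1, was at 25.5 and 31.2 FPKM in shCSB/shNDN, 30.9 and 23.7 in shCSB and 27.3 and 28.8 in shControl. Gpsm1, a relative of Gpsm3, was at 11.3 and 8.84 FPKM in shCSB/shNDN, 11.3 and 9.08 in shCSB and 11.4 and 10.2 in shControl. In both of these the shCSB/shNDN and shControl libraries overlapped, where the means of Hcls1 and Gpsm3 were 7.21 and 5.14 times the control means. Plcg1, the relative of Plcg2 found in most tissues, was at 8.36 and 7.64 FPKM in shCSB/shNDN, 7.33 and 6.84 in shCSB and 6.995 and 8.40 in shControl. Pls3, the plastin of non-blood cells, was at 20.1 and 26.9 FPKM in shCSB/shNDN, 25.5 and 22.8 in shCSB and 25.4 and 24.02 in shControl. Arhgdia, the widely expressed relative of Arhgdib, was at 257 and 125 FPKM in shCSB/shNDN, 210 and 187 in shCSB and 236 and 222 in shControl. Inppl1, which codes for SHIP2, was at 10.9 and 5.83 FPKM in shCSB/shNDN, 6.29 and 5.85 in shCSB and 6.85 and 8.21 in shControl. In Arhgdia and Inppl1 the shCSB/shNDN libraries lay on opposite sides of the controls, as those of Arhgdib did. The lysosomal relative of Laptm5, Laptm4a, was at 138 and 52.1 FPKM in shCSB/shNDN, 124 and 118 in shCSB and 120 and 120 in shControl, so that replicate 2 lay far below the other 5 libraries.

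**Figure D5:**
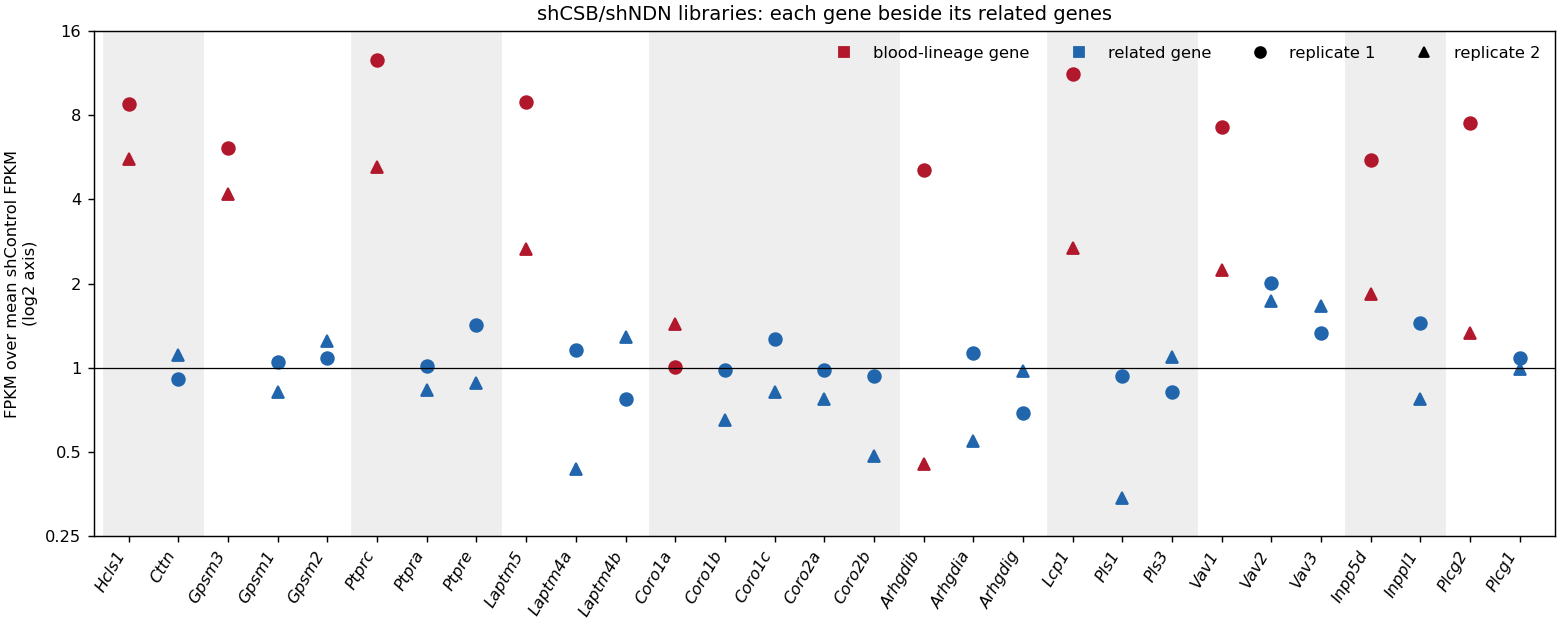
FPKM in each shCSB/shNDN library over the mean of the shControl libraries on a log axis, for each of the 10 genes (red) and its relatives (blue); circles are replicate 1 and triangles replicate 2, and the line at 1 is the control mean. Hcls1 lies at 8.81 and 5.60 and Gpsm3 at 6.09 and 4.18, Arhgdib lies on both sides of the line at 5.11 and 0.453, and among the relatives Gpsm2, Vav2 and Vav3 lie above the line in both libraries.

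A list of 28 genes of the same signalling chain held mostly adaptors, kinases and phosphatases of ITAM receptors, immune receptors that signal through Syk. Of these, 25 passed the filter, 2 of them, Btk and Lcp2, only with the help of shCSB/shNDN libraries. Against shControl, 0 passed the test in either direction by limma or limma-voom. Of the other 23, 19 had both shCSB/shNDN libraries above both controls and 12 were higher with an unadjusted limma p under 0.05. Among all 15435 genes that passed the filter in the shCSB and shControl libraries alone, 19.4% and 5.95% were so, and 25% had both libraries below. The lists were chosen with earlier results of these data known. Such counts, here and for the lists below, are therefore a description and no separate support. The median of the 25 was 0.94, with 1.46 for replicate 1 alone and 0.40 for replicate 2 alone. Tyrobp, the adaptor DAP12 of microglial receptors, was at 367 and 80.2 FPKM in shCSB/shNDN, 28.4 and 25.7 in shCSB and 23.8 and 22.1 in shControl, a log2 change of 2.85 ± 0.63 (SE, limma adjusted p = 0.230). Lat2, a scaffold of receptor signalling, was at 6.62 and 3.92 FPKM in shCSB/shNDN, 0.349 and 0.750 in shCSB and 0.726 and 0.358 in shControl, a change of 2.00 ± 0.28 (adjusted p = 0.130). Both genes had shCSB/shNDN libraries above all others without passing the threshold. The docking protein gene Dok1 had a change of 1.36 ± 0.27 and Rasal3, coding for a Ras GTPase-activating protein, one of 1.78 ± 0.40 (adjusted p = 0.212 and 0.235). With replicate 1 and with replicate 2 alone the changes were 3.94 and 1.76 for Tyrobp, 2.31 and 1.69 for Lat2, 1.74 and 0.98 for Dok1 and 2.44 and 1.13 for Rasal3. The median of this list was 0.81 for shCSB/shNDN against shCSB and 0.12 for shCSB against shControl, with 0 past the threshold in each.

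The next list held 32 regulators of actin and small GTPases in blood cells, with 28 past the filter. Of those 28, 5 passed only with the help of shCSB/shNDN libraries, namely Dock2, Dock8, Arhgap30, Arhgap9 and Tagap. Against shControl 0 passed the test in either direction by limma or limma-voom. Of the other 23, 15 lay above both controls in both libraries and 1, Elmo1, below, and 13 were higher with an unadjusted limma p under 0.05 and 1 lower, beside 19.4%, 25% and 5.95% of all such genes for above, below and higher. The median of the 28 was 0.86, with 1.38 for replicate 1 alone and 0.54 for replicate 2 alone. Capg, a capping protein of actin filaments, was at 31.6 and 10.5 FPKM in shCSB/shNDN, 1.11 and 2.18 in shCSB and 1.26 and 1.01 in shControl, a log2 change of 3.18 ± 0.48 (SE, limma adjusted p = 0.130). Arhgap45, coding for a GTPase-activating protein, was at 13.3 and 6.84 FPKM in shCSB/shNDN, 2.71 and 2.46 in shCSB and 2.17 and 1.75 in shControl, a change of 1.85 ± 0.29 (adjusted p = 0.130). Both lay higher in each shCSB/shNDN library than in the other 4. The myosin gene Myo1f had a change of 2.10 ± 0.43 (adjusted p = 0.215). Arhgap9, 1 of the 5 kept with the help of shCSB/shNDN and so given without a test, was at 3.65 and 1.70 FPKM in shCSB/shNDN, 0.355 and 0.534 in shCSB and 0.292 and 0.478 in shControl. With replicate 1 and with replicate 2 alone the changes were 3.93 and 2.43 for Capg, 2.28 and 1.41 for Arhgap45 and 2.79 and 1.4001 for Myo1f. Rac2, the Rac GTPase of blood cells that Vav1 activates and Arhgdib binds, was at 14.5 and 3.39 FPKM in shCSB/shNDN, 1.397 and 1.83 in shCSB and 1.01 and 1.01 in shControl. The median of this list was 0.75 for shCSB/shNDN against shCSB and 0.19 for shCSB against shControl, with 0 past the threshold in each.

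Leukocyte integrins and adhesion partners, whose binding the same actin regulators control, were a list of 12, with 9 past the filter and 2 of these, Itgax and Cd44, only with the help of shCSB/shNDN libraries. Against shControl 0 passed the test by limma or limma-voom. Of the other 7, 6 lay above both controls in both libraries and 5 were higher with an unadjusted limma p under 0.05, beside 19.4% and 5.95% of all such genes. The median of the 9 was 1.84, with 3.12 for replicate 1 alone and 1.01 for replicate 2 alone. Itgax, the integrin subunit CD11c, was at 18.0 and 4.57 FPKM in shCSB/shNDN, 0.127 and 0.175 in shCSB, and listed at 0 and at 0.0279 in shControl. Cd44, a receptor for hyaluronan, was at 4.73 and 1.87 FPKM in shCSB/shNDN, 0.324 and 0.323 in shCSB and 0.145 and 0.129 in shControl. Both are given without a test, since the filter kept them for being high in shCSB/shNDN. Itgb2, the common beta subunit of leukocyte integrins, had a log2 change of 2.65 ± 0.76 (SE, limma adjusted p = 0.294) and Cd48 one of 2.08 ± 0.62 (adjusted p = 0.2997). With replicate 1 and with replicate 2 alone these were 3.99 and 1.31 for Itgb2 and 3.15 and 1.01 for Cd48. The median of this list was 1.66 for shCSB/shNDN against shCSB and 0.22 for shCSB against shControl, with 0 past the threshold in each. The 15 microglia markers had a median of 1.33 for shCSB/shNDN against shControl, with 12 above both controls, 11 higher at an unadjusted limma p under 0.05 and 0 past the threshold, beside 19.4% and 5.95% of all such genes. That median was 2.16 with replicate 1 alone and 0.54 with replicate 2 alone. The other 3 markers, P2ry12, P2ry13 and Siglech, overlapped the controls, and the lowest change of the 15 was -0.081. The 4 markers named next had the smallest unadjusted limma p of the 15. Trem2, a microglial receptor that signals through Tyrobp, had a change of 3.06 ± 0.38 (adjusted p = 0.105), and passed by limma-voom on the recovered reads (adjusted p = 0.0473). Aif1 had a change of 2.06 ± 0.33, C1qb one of 2.66 ± 0.54 and C1qa one of 2.88 ± 0.61 (adjusted p = 0.130, 0.215 and 0.224). With replicate 1 and with replicate 2 alone the changes were 3.67 and 2.46 for Trem2, 2.59 and 1.54 for Aif1, 3.58 and 1.74 for C1qb and 3.92 and 1.84 for C1qa.

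The pattern of the 10 genes over the 6 libraries was compared with that of 11770 other protein-coding genes, by the root mean square difference of their centred log2(FPKM + 1) values. These 11770 had a mean FPKM of at least 1 over the 6 libraries. Genes low in shCSB and shControl could thus enter through their shCSB/shNDN values. Among the 10 genes themselves, Vav1 lay nearest to their mean pattern, at 0.13, followed by Inpp5d at 0.16 and Lcp1 at 0.17. Coro1a, at 0.70, and Arhgdib, at 0.61, lay farthest from it. Among the 5 nearest other genes were Icam1 at 0.069, Gpr183 at 0.072, Tnfrsf1a at 0.088 and Pycard at 0.093. Icam1, an adhesion molecule that leukocyte integrins bind, was at 4.23 and 1.26 FPKM in shCSB/shNDN, 0.602 and 0.541 in shCSB and 0.268 and 0.338 in shControl. Tnfrsf1a, a receptor for tumour necrosis factor, was at 24.6 and 11.3 FPKM in shCSB/shNDN, 5.54 and 7.07 in shCSB and 5.90 and 6.33 in shControl. Both had shCSB/shNDN libraries above all others and a higher value in replicate 1, which follows from the search for this pattern and is no separate result.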

How the data were processed

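The 6 libraries were prepared from total RNA with a stranded kit, per the labels' protocols. The authors deposited FPKM values as 1 table of 54532 entries. HISAT2 2.0.4, FastQC and GRCm39 are named in the submitters' processing notes; how reads were counted, with which strand setting and annotation, is not given in the sources used here. Gene positions equal those of GENCODE M21 on GRCm38 for 98.3% of 54409 shared identifiers, so coordinates are given on GRCm38. Multiplied by gene length, the FPKM values of a library were whole multiples of a single step (within 0.01), which gave the reads. In the table, 27 symbols turned into dates were restored and 100 shared symbols were summed.

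Genes that reached an FPKM of 0.5 in 2 or more libraries were kept (16254). log2(FPKM + 1) of the 6 libraries was fitted by group with limma 3.58.1 in R 4.3.3, using its mean-variance trend (residual degrees of freedom 3, prior 3.42). p values are two-sided and adjusted over these genes by Benjamini-Hochberg; the threshold was 0.05. The steps were tested on simulated data in which all groups had the same spread. In the real data the shCSB/shNDN pair differed most, so that check does not cover its spread. Replicates were taken as separate mice; no pair agreed within sampling noise (chi-square over its degrees of freedom 126 in shCSB/shNDN, 27.0 in shCSB, 12.0 in shControl). The genes and lists were chosen with earlier results of these data known. Named genes were the 10, their relatives, up to 4 genes per list with the smallest unadjusted p for shCSB/shNDN against shControl, Ercc6, Ndn and the 5 nearest in pattern, of which 1 is not reported here; Rac2 and overlapping genes were named after their values were seen. List counts without the genes that passed the filter only with the help of shCSB/shNDN libraries were added after seeing the data. Alternatives were another pseudocount, other filters, 3 other scalings or models, a block for the replicate number, a fit of just the libraries compared, and leaving out each library.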

Additional observations from a re-analysis of the deposited data

How the results depend on the processing

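For shCSB against shControl, 15 recomputed changes turned sign. For shCSB/shNDN, those of Arhgdib did so without replicate 1 (-0.82 against shControl, -1.02 against shCSB), as did that of Plcg2 against shCSB (-0.084). The median change of the 10 genes for shCSB/shNDN against shControl was 2.12 when the pseudocount was 0.1 and 2.27 by limma-voom, and for shCSB/shNDN against shCSB it was 1.88 and 1.98. Leaving out 1 library at a time gave medians of 0.67 to 2.12, of 0.53 to 2.00 and, for shCSB against shControl, of 0.028 to 0.17. For shCSB against shControl, quantile normalization gave -0.014 for Gpsm3, -0.041 for Ptprc, 0.12 for Coro1a and -0.037 for Vav1, and limma-voom 0.058 for Coro1a. Without 1 library the change in that comparison ran from -0.0094 to 0.37 for Hcls1, -0.088 to 0.15 for Gpsm3, -0.072 to 0.24 for Laptm5, -0.25 to 0.19 for Coro1a, -0.12 to 0.14 for Vav1 and -0.029 to 0.16 for Ercc6. Genes past the threshold numbered 0 to 1 without 1 library for shCSB against shControl, and 2 with only the 4 libraries compared. They were 0 to 893 for shCSB/shNDN against shCSB and 0 to 1808 against shControl, the high values without replicate 1 of shCSB/shNDN, where the lone library is assumed to vary like the other groups. Against shControl they were 0 with no filter, 0 with only the 4 libraries compared and 6 by limma-voom. With the replicate number as a block there were 3, Cd74, Mir6929 and Spp1, and 0 in the other comparisons; same-numbered libraries did not deviate together (correlations of 0.054, -0.016 and -0.071), so the numbers are not read as pairs. Causes were not tested. Ptprc has no value with a mean FPKM of at least 1, and a planned quasi-likelihood count test was not run because the deposited unit is FPKM. Depth limits Ptprc, Gpsm3 and Plcg2 most, at 29, 36 and 38 reads in their lowest libraries.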

Other observations

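The genes P2ry12 and P2ry13, outside the 10, shared the pattern of Arhgdib, with shCSB/shNDN replicate 2 below every other library and replicate 1 above them; they and Elmo1 were picked after their values were seen. P2ry12, a purine receptor of resting microglia, was at 15.8 and 3.51 FPKM in shCSB/shNDN, 7.94 and 13.8 in shCSB and 7.94 and 8.47 in shControl. P2ry13, a related receptor, was at 11.5 and 0.647 FPKM in shCSB/shNDN, 3.19 and 4.73 in shCSB and 3.30 and 2.36 in shControl. Elmo1, whose product links engulfment receptors to Rac, was at 5.43 and 2.78 FPKM in shCSB/shNDN, 6.14 and 6.20 in shCSB and 6.92 and 7.90 in shControl, below all others in both libraries. The cause was not tested.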
